A study of Mesocricetus auratus with 24 samples.

Results

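Ras guanine exchange factors were followed in the inferior colliculus (IC), the midbrain relay of the auditory pathway, of hamsters that have or lack seizures evoked by loud sound. Members were the genes Rasgrf1, Rasgrf2, Rasgrp1, Rasgrp2, Rasgrp3, Sos1 and Sos2, 7 of the 19938 genes tested. They were picked on measured values of these same arrays, because Rasgrf2 was higher in GASH/Sal. The strain differences of the members are therefore given as a description, without a test. The 4 groups, of 6 animals each, were stimulated GASH/Sal, naïve GASH/Sal, stimulated Syrian and naïve Syrian hamsters. GASH/Sal, the genetic audiogenic seizure hamster kept at the University of Salamanca, is an inherited seizure line, and the control Syrian hamsters came from the same species. Stimulated animals of both strains were exposed to sound and their IC was taken 60 min later. The naïve animals of both strains were not exposed. In the animals the paper describes, stimulated GASH/Sal had seizures and stimulated Syrian controls had none. A GASH/Sal response, and its difference from the Syrian one, can therefore hold seizure as well as sound, which cannot be told apart. All 24 animals were 16 weeks old, and each gave RNA for 1 mouse whole-transcript array.

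Ras proteins are small GTPases that signal while bound to GTP and are silent while bound to GDP. A guanine exchange factor opens the nucleotide pocket so that GTP can enter, and each family of exchange factors answers to a different upstream signal. Rasgrf proteins bind calcium and calmodulin and link glutamate receptors of neurons to Ras and, through a further domain, to Rac. Most Rasgrp proteins bind diacylglycerol, a product of phospholipase C, and the family has calcium-binding hands. Sos proteins are carried by the adaptor Grb2 to activated tyrosine kinase receptors. In mice, Rasgrf1 and Rasgrf2 have been tied to synaptic plasticity in the forebrain.

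Values are log2 signals after RMA, the authors' background correction, normalisation and summary of the probes of each probe set. The probes are of mouse and the RNA of hamster, so differences are given between arrays for 1 gene at a time and levels of different genes are not ranked. Column medians lay between 4.50 and 4.65, and pairs of arrays correlated with r from 0.965 to 0.993. A pair of arrays, stimulated Syrian 4 and naïve GASH/Sal 6, correlated least with the others. The labels name the animals of every group in 2 styles, called series A (replicates 1 to 3) and, for the remaining replicates, series B, and the fit held this series as a term. The series themselves differed in 1374 genes (6.89%), none of them a member. The immediate-early gene Fos, the check that sound had acted, averaged 6.69 ± 0.317 in stimulated GASH/Sal, 6.01 ± 0.142 in naïve GASH/Sal, 6.51 ± 0.257 in stimulated Syrian and 6.03 ± 0.151 in naïve Syrian (log2 signal, SD, n = 6 each). Its rise with sound, averaged over the strains, was 0.58 ± 0.0839 log2 (SE; limma, adjusted p = 0.00222). As a check that the markers of the labelled tissue gave signal, 10 of 11 neuronal and 9 of 10 dorsal midbrain genes lay above the median signal of all genes, and so did some telencephalic (4 of 7) and cerebellar genes (7 of 10). Such a placing depends on the probes too, and says nothing of the share of any cell type or region.

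Rasgrf2, the calcium-gated exchange factor on which the choice rested, had its highest group means in both GASH/Sal groups. Its log2 signal was 5.87 at the lowest, 6.24 at the median and 6.62 at the highest in stimulated GASH/Sal. In naïve GASH/Sal it was 6.28, 6.32 and 6.36, in stimulated Syrian 5.82, 6.05 and 6.30, and in naïve Syrian 5.67, 5.85 and 6.03, in the same order. All 6 naïve GASH/Sal arrays lay above all 6 naïve Syrian arrays. The stimulated groups overlapped, with 4 of the 6 stimulated GASH/Sal arrays below the highest stimulated Syrian array. Over both sound conditions, 6 of 12 GASH/Sal arrays lay above every Syrian array and 5 of 12 Syrian arrays lay below every GASH/Sal array.

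**Figure D1:**
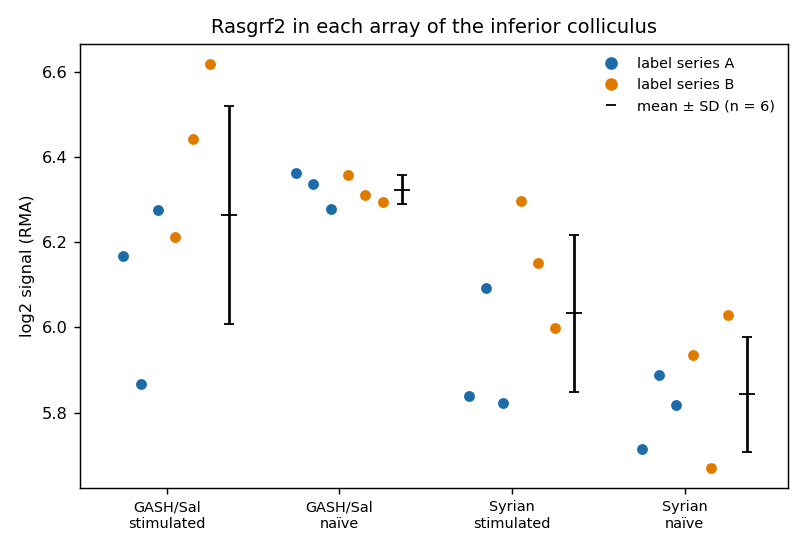
Log2 signal (RMA, y axis) of Rasgrf2 in each of the 24 arrays, by group (x axis) and coloured by label series, with the mean and SD of the 6 arrays beside the points. The naïve GASH/Sal points lie within 6.28 to 6.36, above every naïve Syrian point, while the stimulated GASH/Sal points spread between 5.87 and 6.62.

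The SD of Rasgrf2 was smallest in naïve GASH/Sal and largest in stimulated GASH/Sal, a difference that was not tested. Its mean was 6.26 ± 0.256 in stimulated GASH/Sal and 6.32 ± 0.0345 in naïve GASH/Sal, against 6.03 ± 0.185 in stimulated Syrian and 5.84 ± 0.136 in naïve Syrian (SD, n = 6 each). The 6 naïve GASH/Sal arrays spanned 0.0836 log2 in all. Of the stimulated GASH/Sal arrays, 2 lay above the highest and 4 below the lowest naïve GASH/Sal array. The means of the label series stood on either side of that narrow band, although 1 series B array, stimulated GASH/Sal 4, lay below it at 6.21. Stimulated GASH/Sal averaged 6.10 in series A and 6.42 in series B, whereas naïve GASH/Sal averaged 6.33 in series A and 6.32 in series B. Stimulated Syrian arrays averaged 5.92 in series A and 6.15 in series B, and naïve Syrian arrays 5.81 in series A and 5.88 in series B. Series B was higher than series A by 0.15 ± 0.0630 log2 over all groups (SE; limma, adjusted p = 0.148), which did not pass the threshold of 0.05.

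As a log2 difference of GASH/Sal minus Syrian, Rasgrf2 stood at 0.48 in naïve animals (95% interval 0.30 to 0.66), a 1.40-fold ratio. In stimulated animals it was 0.23 (0.049 to 0.41), a 1.17-fold ratio, and averaged over both conditions 0.36 (0.23 to 0.48), a 1.28-fold ratio. All 6 naïve GASH/Sal arrays, 5 of 6 stimulated GASH/Sal arrays and 11 of 12 GASH/Sal arrays in all lay above the mean of their Syrian counterparts. Without both arrays that correlated least with the others, the averaged difference was 0.39. Within series A it was 0.35 and within series B 0.36. Since the tissue was whole IC, fewer cells that make a transcript and less of that transcript per cell cannot be told apart. Rasgrf2 was also read through 1 mouse probe set. Whether the strains differ in sequence under its probes, which could itself change the signal, was not tested.

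Between the strains 2 of 19938 genes (0.0100%) passed on average over both sound conditions, Rasgrf2 and Arl15, a small GTPase of the Arf family, and both were higher in GASH/Sal. Thus 1 of the 7 members was among the calls, which the choice of members fixed in advance. Rasgrf2 was called in 6 of the 24 fits that each left out 1 array. No gene was called when the label series was left out of the fit or when either series was fitted alone. The same held when terms for the replicate number took the place of the label series. No gene (0%) passed in naïve or in stimulated animals alone (limma). An unadjusted p under 0.05 was found for 1593 genes (7.99%) on average, 1201 (6.02%) in naïve and 1080 (5.42%) in stimulated animals. Groups without overlap and higher in naïve GASH/Sal, as for Rasgrf2, were found for 17 genes (0.0853%).

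Rasgrf1, the closest relative of Rasgrf2 and in mice an imprinted gene, had values that overlapped in all 4 groups. Its log2 signal was 5.51 at the lowest, 5.60 at the median and 5.76 at the highest in stimulated GASH/Sal, and 5.44, 5.49 and 5.66 in naïve GASH/Sal. It was 5.41, 5.62 and 5.65 in stimulated Syrian and 5.47, 5.56 and 5.82 in naïve Syrian. The highest value of all was in a naïve Syrian array and the lowest in a stimulated Syrian array. The strain difference was -0.092 log2 in naïve animals (-0.24 to 0.060) and 0.052 in stimulated animals (-0.10 to 0.20).

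Rasgrp1, a diacylglycerol-gated activator of Ras known best from T cells and also made by neurons, varied widely within groups. Its lowest, median and highest log2 signals were 5.77, 5.90 and 6.13 in stimulated GASH/Sal and 5.46, 5.83 and 6.13 in naïve GASH/Sal. They were 5.49, 5.89 and 6.14 in stimulated Syrian and 5.70, 5.95 and 6.17 in naïve Syrian. The 4 ranges shared most of their length. The strain difference was -0.13 log2 in naïve animals (-0.34 to 0.083) and 0.091 in stimulated animals (-0.12 to 0.30). In naïve GASH/Sal the series means were 5.61 in series A and 6.02 in series B, and all 3 series A arrays lay below all 3 series B arrays.

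Rasgrp2, which acts mainly on the Ras relative Rap1 and is known from platelets and the striatum, averaged 5.69 ± 0.145 in stimulated GASH/Sal and 5.57 ± 0.101 in naïve GASH/Sal. It averaged 5.61 ± 0.0449 in stimulated Syrian and 5.56 ± 0.232 in naïve Syrian (SD, n = 6 each). The naïve Syrian arrays were the most spread, at 5.28 to 5.44 in series A and 5.68 to 5.90 in series B, with no overlap between the series. The strain difference was 0.0068 log2 in naïve animals (-0.16 to 0.17) and 0.080 in stimulated animals (-0.086 to 0.25). In naïve animals alone it was 0.20 within series A and -0.18 within series B.

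Rasgrp3, known from B cells and the vessel wall, averaged 5.47 ± 0.162 in stimulated GASH/Sal and 5.45 ± 0.222 in naïve GASH/Sal. It averaged 5.41 ± 0.212 in stimulated Syrian and 5.34 ± 0.148 in naïve Syrian (SD, n = 6 each). The order of these means was that of the strains, but neighbouring groups differed by less than their SDs. The lowest value, 5.08, was in a stimulated Syrian array and the highest, 5.87, in a naïve GASH/Sal array. The strain difference was 0.11 log2 in naïve animals (-0.092 to 0.32) and 0.062 in stimulated animals (-0.15 to 0.27).

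The receptor-linked pair Sos1 and Sos2 are made by most cell types. Sos1 averaged 4.78 ± 0.121 in stimulated GASH/Sal, 4.71 ± 0.136 in naïve GASH/Sal, 4.69 ± 0.0575 in stimulated Syrian and 4.66 ± 0.0900 in naïve Syrian. Sos2 averaged 4.92 ± 0.145 in stimulated GASH/Sal, 5.02 ± 0.211 in naïve GASH/Sal, 4.91 ± 0.185 in stimulated Syrian and 4.91 ± 0.0959 in naïve Syrian (SD, n = 6 each). Arrays of the strains were interleaved for both genes. The strain difference of Sos1 was 0.049 log2 in naïve (-0.095 to 0.19) and 0.088 in stimulated animals (-0.056 to 0.23). That of Sos2 was 0.11 in naïve (-0.079 to 0.30) and 0.012 in stimulated animals (-0.18 to 0.20).

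**Figure D2:**
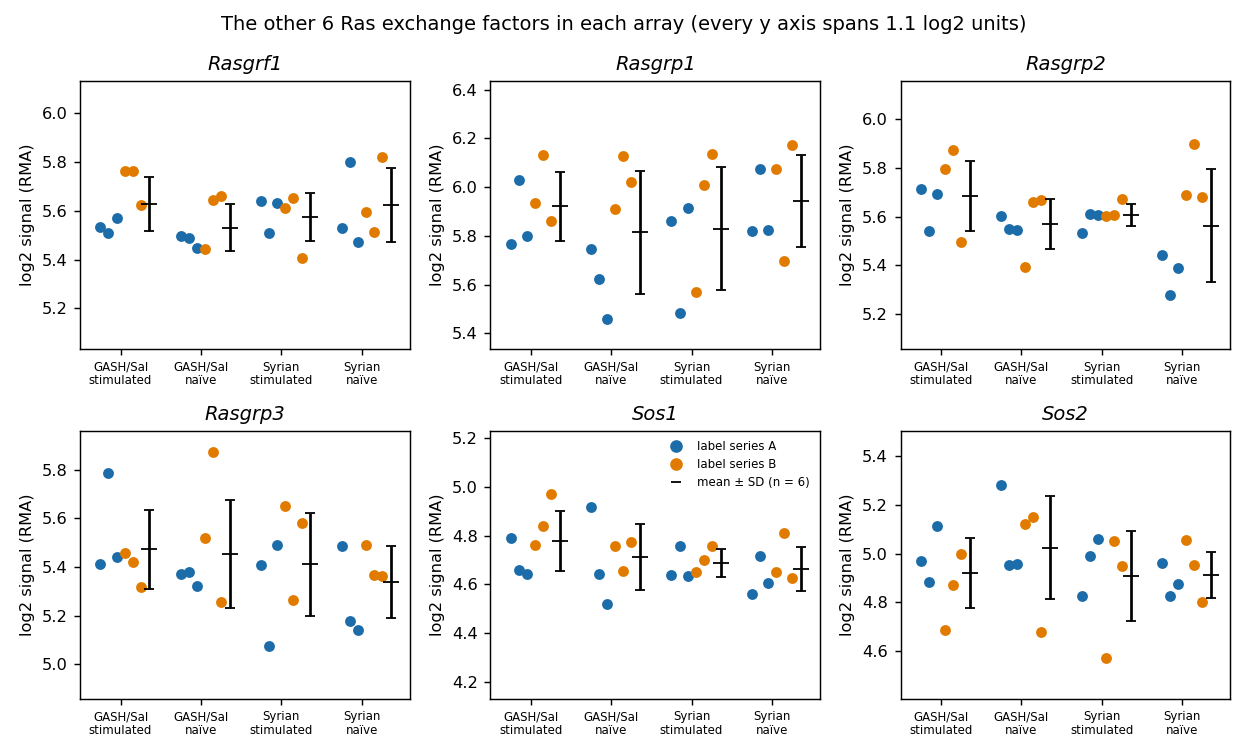
Log2 signal (RMA, y axis) of the other 6 exchange factors in each array, by group (x axis) and coloured by label series, with the mean and SD of 6 arrays beside the points. In all 6 panels the GASH/Sal and Syrian points overlap, and the series separate within naïve GASH/Sal for Rasgrp1, within naïve Syrian for Rasgrp2 and within stimulated GASH/Sal for Rasgrf1.

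Across the members, 5 of 7 strain differences were above 0 in naïve animals and 7 of 7 in stimulated animals. The medians were 0.049 and 0.080 log2. Both counts and medians include Rasgrf2, which was chosen for being higher in GASH/Sal. In stimulated animals Rasgrf1 stood at -0.056 within series A. Within series B, Rasgrp3 stood at -0.099 and Sos2 at -0.0055. Over all genes, 45.8% were above 0 in naïve animals with a median of -0.011, and 44.0% in stimulated animals with a median of -0.014. For the members other than Rasgrf2 the 95% interval included 0 in both conditions. That of Rasgrf2 is no test, since the choice rested on its strain difference.

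**Figure D3:**
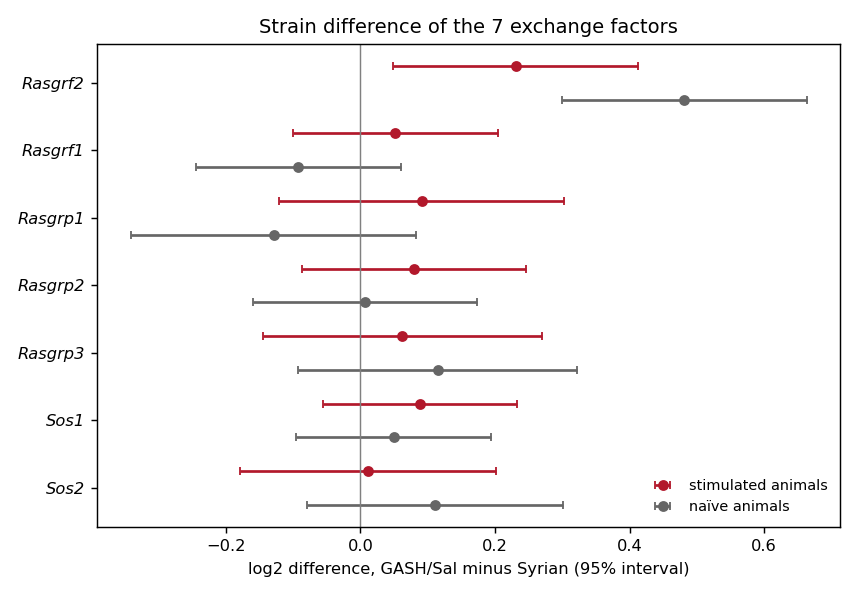
Log2 difference of GASH/Sal minus Syrian (x axis) for each of the 7 exchange factors (y axis), in stimulated animals (red) and naïve animals (grey), with 95% intervals. Rasgrf2 stands at 0.23 in stimulated and 0.48 in naïve animals, and the intervals of the other 6 cross 0. Rasgrf2 was chosen for being higher in GASH/Sal, so its values are a description.

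The response to sound was not what the members were chosen on, and it was tested for the other 6 in every contrast. For Rasgrf2 it was tested only as the average over both strains, because within a strain it shares naïve or stimulated arrays with the strain difference behind the choice. Averaged over the strains, stimulated minus naïve was 0.066 log2 for Rasgrf2 (95% interval -0.063 to 0.19, limma, adjusted p = 0.840), and 8 of 12 stimulated arrays lay above the naïve mean. The sign turned between the label series, with -0.056 in series A and 0.19 in series B. No member passed (0 of 7), where Fos was the 1 gene called of all genes tested (0.00502%) and 1474 genes (7.39%) had an unadjusted p under 0.05, none a member.

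Within the strains Rasgrf2 had opposite signs. Stimulated minus naïve was -0.059 log2 in GASH/Sal (-0.24 to 0.12) and 0.19 in Syrian hamsters (0.0087 to 0.37). The naïve mean was exceeded by 2 of 6 stimulated GASH/Sal arrays and by 4 of 6 stimulated Syrian arrays. In Syrian hamsters 3 of the 6 stimulated arrays lay above the highest naïve array. The GASH/Sal value was -0.22 within series A and 0.10 within series B, and 0.0082 without stimulated GASH/Sal 2, the lowest array of its group. The GASH/Sal response minus the Syrian response was -0.25 (-0.51 to 0.0073). These within-strain values are a description.

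For the other 6 members no response to sound passed in GASH/Sal, in Syrian hamsters, on average or as a difference between the strains (limma, 0 of 6 in each, also at an unadjusted p under 0.05). Over all genes 0 passed (0%) in GASH/Sal, in Syrian hamsters and in the difference of responses. An unadjusted p under 0.05 was found for 889 genes (4.46%) in GASH/Sal, 1323 (6.64%) in Syrian hamsters and 734 (3.68%) in the difference. In GASH/Sal, stimulated minus naïve was 0.098 log2 for Rasgrf1 (-0.055 to 0.25), 0.11 for Rasgrp1 (-0.11 to 0.32) and 0.12 for Rasgrp2 (-0.051 to 0.28). It was 0.020 for Rasgrp3 (-0.19 to 0.23), 0.066 for Sos1 (-0.078 to 0.21) and -0.10 for Sos2 (-0.29 to 0.087). All 6 had an adjusted p of 0.999. Each interval includes changes up to its own ends only, of which the lowest was -0.29 (Sos2) and the highest 0.32 log2 (Rasgrp1).

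In Syrian hamsters, stimulated minus naïve was -0.047 log2 for Rasgrf1 (adjusted p = 0.925), -0.11 for Rasgrp1 (adjusted p = 0.863) and 0.042 for Rasgrp2 (adjusted p = 0.940; limma). It was 0.073 for Rasgrp3 (adjusted p = 0.914), 0.027 for Sos1 (adjusted p = 0.957) and -0.0039 for Sos2 (adjusted p = 0.995; limma). Rasgrf1 and Rasgrp1 thus had a positive value in GASH/Sal and a negative one in Syrian hamsters, with neither passing. Their differences in response were 0.14 log2 (-0.071 to 0.36) for Rasgrf1 and 0.22 (-0.080 to 0.52) for Rasgrp1. For Rasgrp1 the GASH/Sal value was 0.26 within series A and -0.044 within series B, and the difference in response 0.41 within series A and 0.032 within series B. Comparisons within and between strains share arrays, so their values are set side by side only.

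**Figure D4:**
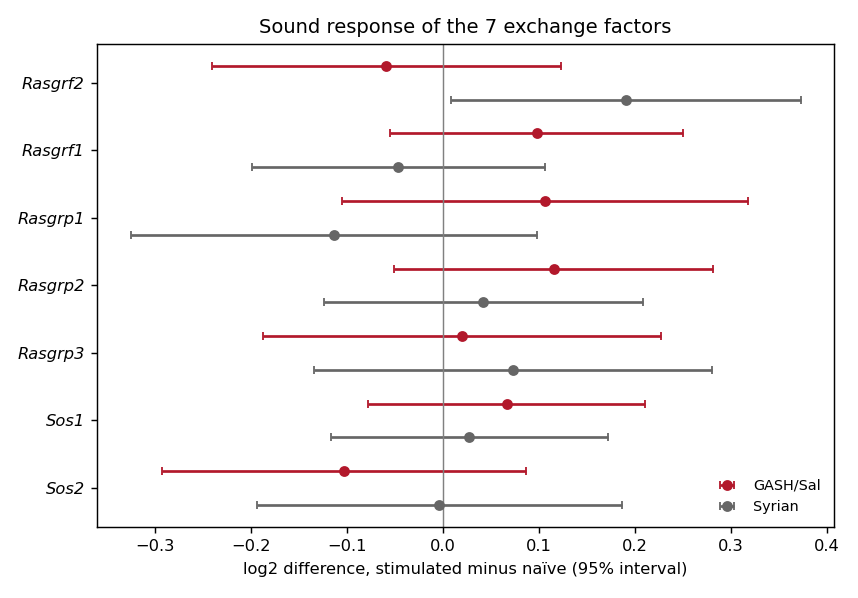
Log2 difference of stimulated minus naïve (x axis) for each of the 7 exchange factors (y axis), in GASH/Sal (red) and Syrian hamsters (grey), with 95% intervals. The points run from -0.11 to 0.19, and the intervals of the members other than Rasgrf2 include 0. The Syrian interval of Rasgrf2 is 0.0087 to 0.37. Its values here are a description with no test, as they share arrays with the strain difference behind the choice.

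The members were compared from array to array once group means and label series were taken out. The highest correlation among the 21 pairs was 0.38, between Rasgrf1 and Rasgrp1. The lowest was -0.48, between Rasgrf2 and Rasgrp3 (Pearson r across 24 arrays, a description). Stimulated GASH/Sal 2 had both the highest Rasgrp3 (5.79) and the lowest Rasgrf2 (5.87) of its group. The correlation without that array was not computed. Of all genes, those whose residuals were most like Rasgrf2 were Tet3, which oxidises methylated cytosine, with r of 0.78, Mir204 with 0.76, 9530091C08Rik with 0.75, Gm9962 with 0.73 and the DNA methyltransferase gene Dnmt3b with 0.72. Those least like it were the orphan receptor gene Gpr135 with -0.79, Supt3 with -0.78 and Sfxn3 with -0.76. These are the extremes of 19938 genes over arrays that share hybridisation quality and tissue make-up. The strain difference of these 8 genes lay between -0.10 (Mir204) and 0.067 (9530091C08Rik), against 0.36 for Rasgrf2.

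The genes that flank Rasgrf2 in the hamster RefSeq annotation (BCM_Maur_2.0) were read as well, the 10 with a value on each side. Averaged over both conditions, 11 of the 20 were higher and 9 lower in GASH/Sal, with a median of 0.016 log2. They ran from -0.20 ± 0.0566 for Thbs4, a thrombospondin, to 0.17 ± 0.0659 for Hapln1, a link protein of the perineuronal matrix (SE). The nearest on either side were Msh3, a mismatch repair gene, at 0.097 ± 0.0570 and Ckmt2, a mitochondrial creatine kinase, at -0.029 ± 0.0734. No neighbour was among the calls, which were 2 of 19938 genes (0.0100%). At an unadjusted p under 0.05 (limma), Thbs4 and Atg10 were lower in GASH/Sal. Hapln1, Cmya5, Fam151b and Zfyve16 were higher at that p, where the share over all genes was 7.99%. Whether neighbours differ more often than other genes was not tested. Each neighbour lay below Rasgrf2, but Rasgrf2 was chosen for being high, and 0.080% of all genes had a larger absolute difference. The order is therefore no sign that the difference is confined to Rasgrf2.

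**Figure D5:**
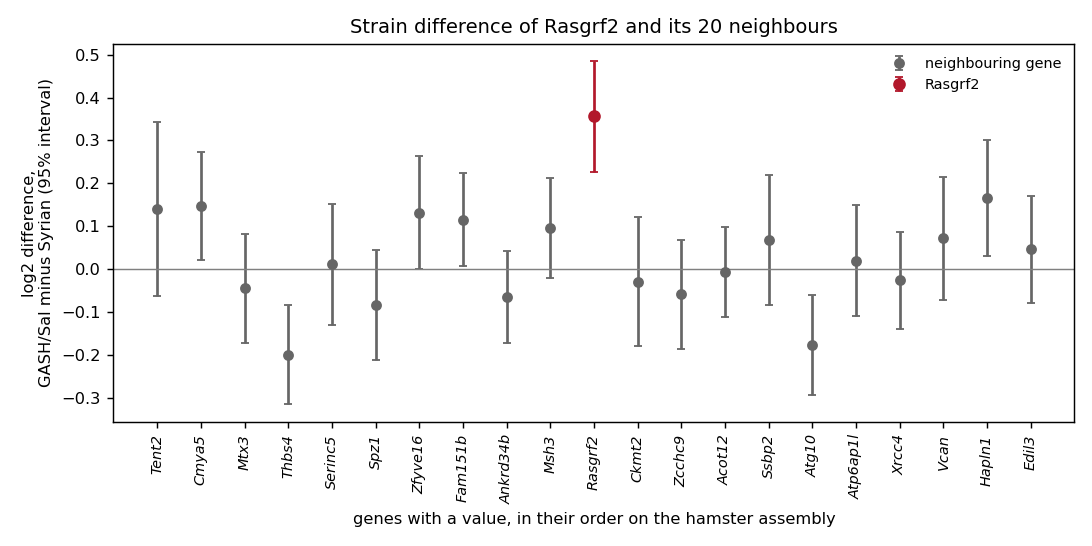
Log2 difference of GASH/Sal minus Syrian (y axis, averaged over both sound conditions, with 95% intervals) for Rasgrf2 (red) and the 10 genes with a value on each side of it (grey), in the order of the hamster annotation (x axis). Rasgrf2 is at 0.36, and the neighbours run from -0.20 to 0.17.

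The rest of the Ras pathway was read through 8 lists of genes, put together by known role. They held the GTPases themselves (22 of 24 listed genes tested), the GTPase-activating proteins and inhibitors (15 of 16), other exchange factors of the Ras and Rap family (19 of 21) and exchange factors of Rac and its kin (13 of 14). They also held receptors and adaptors upstream of Sos (20 of 21), calcium inputs (15 of 17), diacylglycerol inputs (20 of 23) and the MAP kinase cascade (17 of 23). In none of the 8 lists did a gene pass in any of the 7 contrasts (limma). At an unadjusted p under 0.05 between the strains on average there were 2 higher and 1 lower of the GTPases, 2 higher and 2 lower of the other exchange factors, 1 higher of the calcium inputs, 2 higher of the diacylglycerol inputs and 0 of the other lists, where the share over all genes was 7.99%.

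Over all genes the median between the strains was -0.015 log2, with 42.6% above 0. The lowest median of the lists was that of the Rac exchange factors, -0.014, and the highest that of the calcium inputs, 0.056, with 12 of 15 above 0. The gene of lowest p in each list is given by value, as none passed. Rasd1, a Ras-like GTPase induced by glucocorticoids, differed by -0.14 ± 0.0594 and Spred1, a Ras inhibitor, by 0.11 ± 0.0631. Rapgef2, an exchange factor of Rap, differed by 0.15 ± 0.0524 and Ect2, an exchange factor needed in cell division, by -0.12 ± 0.0804. Igf1r, a growth factor receptor, differed by 0.11 ± 0.0600 and Calm3, which encodes the calmodulin that Rasgrf proteins bind, by 0.13 ± 0.0601. Plcb4, a phospholipase C, differed by 0.14 ± 0.0574 and Creb1, a transcription factor downstream of the cascade, by 0.17 ± 0.0851 (SE, log2, GASH/Sal minus Syrian). Rasgrp4, the remaining gene of the Rasgrp family, differed by -0.017 ± 0.0533.

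With sound the MAP kinase cascade had the highest median of the 8 lists, 0.12 log2 averaged over the strains with 14 of 17 above 0, where all genes had a median of 0.015 with 58.3% above 0. Of its 17 genes 3 had an unadjusted p under 0.05, all higher, where the share over all genes was 7.39%, and 0 passed (limma). The oligodendrocyte markers had a like value, with a median of 0.11 log2, 7 of 9 above 0 and 5 of 9 higher at an unadjusted p under 0.05, none past the threshold. Their mean signal ranged over 5.95 to 6.13 in stimulated GASH/Sal, 5.82 to 6.16 in naïve GASH/Sal, 5.94 to 6.22 in stimulated Syrian and 5.86 to 6.05 in naïve Syrian. The medians of the other 7 marker lists with sound lay between -0.0056 and 0.042, and the part of cell make-up in these values was not tested. In GASH/Sal alone the genes of lowest p were Rap2a at 0.26 ± 0.101, Spry2, an inhibitor of receptor signalling, at 0.21 ± 0.116 and Rasgef1b at 0.18 ± 0.0857. The others were Ect2 at -0.18 ± 0.114, Frs3 at 0.11 ± 0.0861, the glutamate receptor subunit gene Grin2d at 0.16 ± 0.104, Plcb1 at 0.18 ± 0.0969 and Elk4, a transcription factor phosphorylated by MAP kinases, at 0.23 ± 0.0970 (SE, log2, stimulated minus naïve).

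Markers of cell types were set beside the strain difference of Rasgrf2. No marker in the 8 lists was called between the strains, where 2 of 19938 genes (0.0100%) were called on average. At an unadjusted p under 0.05 (limma), 1 neuronal gene was higher and 1 telencephalic and 1 cerebellar gene were lower. Of the oligodendrocyte genes 1 was higher and 2 lower, and of the vessel and blood genes 1 was higher and 1 lower. The share over all genes was 7.99%. The 11 neuronal genes had a median difference of 0.012 log2, and their mean signal ranged over 7.46 to 7.59 in stimulated GASH/Sal, 7.33 to 7.62 in naïve GASH/Sal, 7.34 to 7.54 in stimulated Syrian and 7.38 to 7.55 in naïve Syrian. The medians of the other lists were 0.0078 for dorsal midbrain, -0.045 for telencephalon, -0.029 for cerebellum and -0.019 for astrocytes. They were 0.047 for oligodendrocytes, -0.014 for microglia and -0.037 for vessels and blood. The part of tissue make-up in the strain difference of Rasgrf2 was not tested.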

How the data were processed

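RNA from the IC of 24 hamsters was labelled and hybridised to 24 mouse whole-transcript arrays. The authors deposited log2 signals after RMA, a tool named in the submitters' processing notes without a version, for 35556 probe sets. Values ran from 1.20 to 14.3. Arrays give no read depth, and their number limits the precision; the median SE of a difference of 2 groups was 0.0895. Of the probe sets, 21789 had 1 gene symbol in the platform annotation, 1621 several and 12146 none listed here. Probe sets with 1 symbol were used, and the one of highest mean for the 999 genes with more than 1, which left 19938 genes. Each member had 1 probe set. No column was left out (0).

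Differences were estimated with limma 3.58.1 in R 4.3.3 (lmFit, eBayes) on all 24 arrays, with 4 groups and the label series as terms and 19 residual degrees of freedom. What the label series stands for was not stated in the labels or methods read here. Two-sided p-values were adjusted over all genes (Benjamini-Hochberg) and read at a threshold of 0.05. The labels call the animals biological replicates. The scripts were tested on simulated data. Genes to name were the members, Fos, the neighbours of Rasgrf2 and the 5 most and 3 least like it. Each list gave its calls or, without any, its gene of lowest p. That gene was taken in the averaged strain contrast and in the GASH/Sal sound contrast. Arl15, Arsb and Rasgrp4 were named outside that rule. The members and lists were chosen with earlier results of these data known. Within-strain sound values of Rasgrf2 had been planned as tests and are described only. Alternatives were no label series, a replicate block, a single series, fits on the contrasted groups only, dropping genes under the median signal, probe set means, centring, quantile normalisation, trend and robust, array weights and leaving out each array. Leaving out the pair of arrays that stood apart was added after seeing the data.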

Additional observations from a re-analysis of the deposited data

Results flagged for a closer look

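Among the 28 groups of 6 arrays (7 members in 4 groups), 1 held an array far from the others. Rasgrp3 stood at 5.79 log2 in stimulated GASH/Sal 2, where the other 5 arrays of the group lay between 5.32 and 5.46. The gap was 0.708 of the range, above Dixon's 95% critical value for 6 arrays. Chance alone marks about 1 in 20 groups. The same animal had the lowest Rasgrf2 signal of its group, 5.87.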

How the results depend on the processing

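The averaged strain difference of Rasgrf2 was above 0 in all alternatives run, at 0.33 to 0.39 log2 with 1 array left out and 0.35 to 0.39 otherwise, as were those in naïve (0.43 to 0.52) and stimulated animals (0.17 to 0.30). Its call was not stable. The genes called between strains on average numbered 0 without the label series, with the replicate block and in either series alone (0 members each), 5 with centring, 4 with quantile normalisation, 19 with array weights, 36 without the pair of arrays and 0 to 36 with 1 array left out (members 0 to 1). Rasgrf2 was lost in 18 of those 24 fits. It was kept without stimulated GASH/Sal 2, naïve GASH/Sal 3, 5 or 6, or stimulated Syrian 2 or 4, and the 36 came without naïve GASH/Sal 6. In naïve animals there were 2 calls with the filter, 1 with centring, 18 with weights, 64 without the pair and 0 to 13 with 1 array left out (members 1, 1, 1, 1 and 0 to 1). For sound on average 444 genes were called in series A, 0 in series B, 14 with weights, 2 without the pair and 1 to 12 with 1 left out. In GASH/Sal 7 were called in series A, 1 each with the filter, with trend and robust and with weights, and 0 to 1 with 1 left out. In Syrian hamsters 5 were called in series A. No member was among the sound calls. The sound value of Rasgrf2 in GASH/Sal was -0.22 in series A and 0.10 in series B. The cause was not tested. Of 1736 member values under the alternatives 10 moved by more than the spread between replicates, all of Rasgrf2, Rasgrp2 and Rasgrp3 in a single label series. Deviations from group means of animals with the same number correlated with r of -0.16 to 0.32 over 36 pairs, 12 of them over 0.1. With the label series also taken out, r was -0.30 to 0.17, with 2 over 0.1. No pairing by number was thus seen beyond the label series. With the replicate block no strain call was left and the call of Fos with sound was kept. Sos1 lay below the filter and has no value there, and groups alone give none for averages.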

Other observations

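A further feature of the strain comparison was noticed after the values were seen. The 3 genes of lowest p between the strains on average were Rasgrf2, Arl15 and Arsb, the gene of the lysosomal enzyme arylsulfatase B. Their log2 differences were 0.36 ± 0.0630, 0.40 ± 0.0717 and 0.24 ± 0.0467 (SE, GASH/Sal minus Syrian). Arsb did not pass (limma, adjusted p = 0.0897), and of its 2 probe sets the one of highest mean was used. Arl15 and Arsb lie in the same unbroken run of rising start positions in the hamster RefSeq annotation as Rasgrf2. The run was defined as the one that holds Rasgrf2, so Rasgrf2 itself does not count. The run holds 165 of the 14106 tested genes found in that annotation by symbol (1.17%). Of the next 7 genes by p, 4 were found in that annotation and none of these lay in the run. Arsb stood 26 rows and Arl15 280 rows before Rasgrf2. Arsb averaged 5.36 ± 0.148 in stimulated GASH/Sal, 5.49 ± 0.177 in naïve GASH/Sal, 5.23 ± 0.0566 in stimulated Syrian and 5.13 ± 0.136 in naïve Syrian (log2 signal, SD, n = 6 each). Between Arsb and Rasgrf2 lay 14 genes with a value, of which 7 were above 0, with a median of -0.016. The residuals of Rasgrf2 and Arsb correlated with r of -0.13 over 24 arrays. No test was run of whether genes of this run differ more often.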
